A study of Mus musculus with 8 samples.

Results

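The Slc25 genes encode the mitochondrial carrier family, and those described here are all genes of the count table whose symbol begins with Slc25a and a number, apart from the carnitine carrier gene Slc25a20. The choice used the names alone and gave 46 of the table's 23372 genes. They were measured in brown adipose tissue of mice aged 10 weeks on a C57BL/6 N background. Control mice carried floxed Lsd1 alleles and no stated Cre (libraries 511, 514, 517 and 518). Knockout mice carried the floxed alleles together with Cre recombinase under the Ucp1 promoter, so that the histone demethylase LSD1 (gene symbol Kdm1a) was removed where that promoter is active, chiefly in brown adipocytes. These were libraries 512, 513, 515 and 516. Loss of Lsd1 and presence of the Cre transgene cannot be told apart in this design. Cells of the tissue that do not use this promoter still have Lsd1. The labels number the libraries separately but do not say how the mice were bred or collected, so a p-value measures only the spread among these samples.

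Mitochondrial carriers are small proteins of the inner mitochondrial membrane, built from a triplicated pair of membrane-spanning helices, that exchange a metabolite in the matrix for another outside. They bring ADP, phosphate, pyrimidine nucleotides, cofactors and amino acids into the matrix and let citrate, ATP and aspartate out. A few members sit in other membranes, such as that of the peroxisome. The uncoupling protein that defines brown fat belongs to the same protein family but carries a different symbol, and it is not among the genes counted here. Brown adipocytes are packed with mitochondria, and their heat production from fat, sugar and amino acids draws on this traffic.

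The libraries held 33011022 to 38756920 counts summed over all rows of the table. Kdm1a lay between 33.3 and 36.9 CPM (counts scaled to the size of the library) in controls and between 12.2 and 14.0 CPM in knockouts. The 7 brown adipocyte markers were all detected, and their summed level was 7414 to 10655 CPM in controls and 4515 to 5076 CPM in knockouts. By the test 4 of 7 were lower, 57.1%, as were 3 of 5 genes common to all adipocytes, 60.0%, beside 18.9% over all genes. In bulk tissue, fewer cells of a type and less RNA per cell cannot be told apart. Among markers of other cells, 15 skeletal muscle genes summed to 306 to 6264 CPM in controls and 7402 to 15888 CPM in knockouts. All were detected, and 2 were called higher, 13.3%, near the 15.4% over all genes. All 15 had a positive estimate, and 9 had an unadjusted p under 0.05 in edgeR's test, beside 6488 of the 14178 genes tested. For 12 of them the groups did not overlap, 80.0% beside 35.5% over all genes. Of 8 macrophage genes 4 were called higher (77.6 to 133.4 CPM summed in controls, 142.0 to 220 CPM in knockouts), and of 6 Schwann cell and nerve genes 1 was (212 to 231 CPM against 269.5 to 308 CPM). No endothelial, fibroblast or erythroid marker was called in edgeR's test, with 2 of 6, 1 of 6 and 2 of 5 at an unadjusted p under 0.05. The part of these cells, brown adipocytes included, in the carrier results was not tested, except where a value is given below.

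In knockouts the carriers of citrate (Slc25a1), branched-chain amino acids (Slc25a44), NAD (Slc25a51), S-adenosylmethionine (Slc25a26) and folate (Slc25a32) were lower. The ADP/ATP carrier Slc25a4, the aspartate-glutamate carrier Slc25a12 and the mitoferrin Slc25a37 were higher. The other main ADP/ATP carrier, Slc25a5, was lower, and the phosphate carrier Slc25a3 was not called. The call of Slc25a12 ended with the level of the skeletal muscle markers in the model (adjusted p = 0.0759 by edgeR) and without knockout 512 (0.0502). Of the 46 carrier genes 40 had enough counts to be tested, and 20 of these differed between the groups at an adjusted p under 0.05 in edgeR's quasi-likelihood test, against 34.4% of all genes tested. They were 15 lower genes, 37.5% of those tested beside 18.9% over all genes, and 5 higher genes, 12.5% beside 15.4%. Counted another way, the 4 control and 4 knockout libraries did not overlap for 21 carriers, 52.5% of those tested beside 35.5% over all genes. The median log2 change (the log2 of knockout over control) of the tested carriers was -0.23, beside -0.01 over all genes. Scaling by library sizes alone moved the median of all genes by 0.199 on the log2 scale. It left 7 carriers higher and 10 lower of 40, beside 4077 higher and 930 lower of all 14178 genes tested. The carrier median was then -0.03, beside 0.19 over all genes, so small falls below are relative to the scaling chosen. Upper quartile factors moved that median by 0.103 and left 6 carriers higher and 14 lower. As a share of the counts of all genes, each by its chosen row, which is itself a scaling by library size, the carriers made up 0.609% to 0.649% of a control library and 0.560% to 0.568% of a knockout library.

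Carrier levels in controls spanned more than 3 orders of magnitude per length of transcript. Dividing CPM by transcript length, 10 carriers stood at 100 CPM per kb or more, 15 between 10 and 100, 12 between 1 and 10, and 9 below 1. The ADP/ATP carrier Slc25a4 led the control means at 602 ± 66.0 CPM per kb (SD, n = 4), followed by the citrate carrier Slc25a1 at 509.8 ± 142 and the second ADP/ATP carrier Slc25a5 at 453 ± 19.1. Neither Slc25a1 and Slc25a4 nor Slc25a1 and Slc25a5 differed beyond their spread. Means are given here and below ± SD over the 4 libraries of a group. The glutathione carrier Slc25a39 and the phosphate carrier Slc25a3 were at 277 ± 9.99 and 259.9 ± 47.4 CPM per kb, and these differed from each other by less than their spread. In every library the 5 highest carriers took 59.3% to 63.7% of the summed per-length level of the family. The calls were also counted by these classes, which are set by the control level that itself enters each change. The share of all genes called at each level was not counted, so no background stands beside these numbers. Of the 10 carriers with the highest control levels 6 were lower and 1 higher, of the next 15 there were 9 lower and 0 higher, and of the 12 between 1 and 10 CPM per kb 4 were higher and 0 lower.

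**Figure D1:**
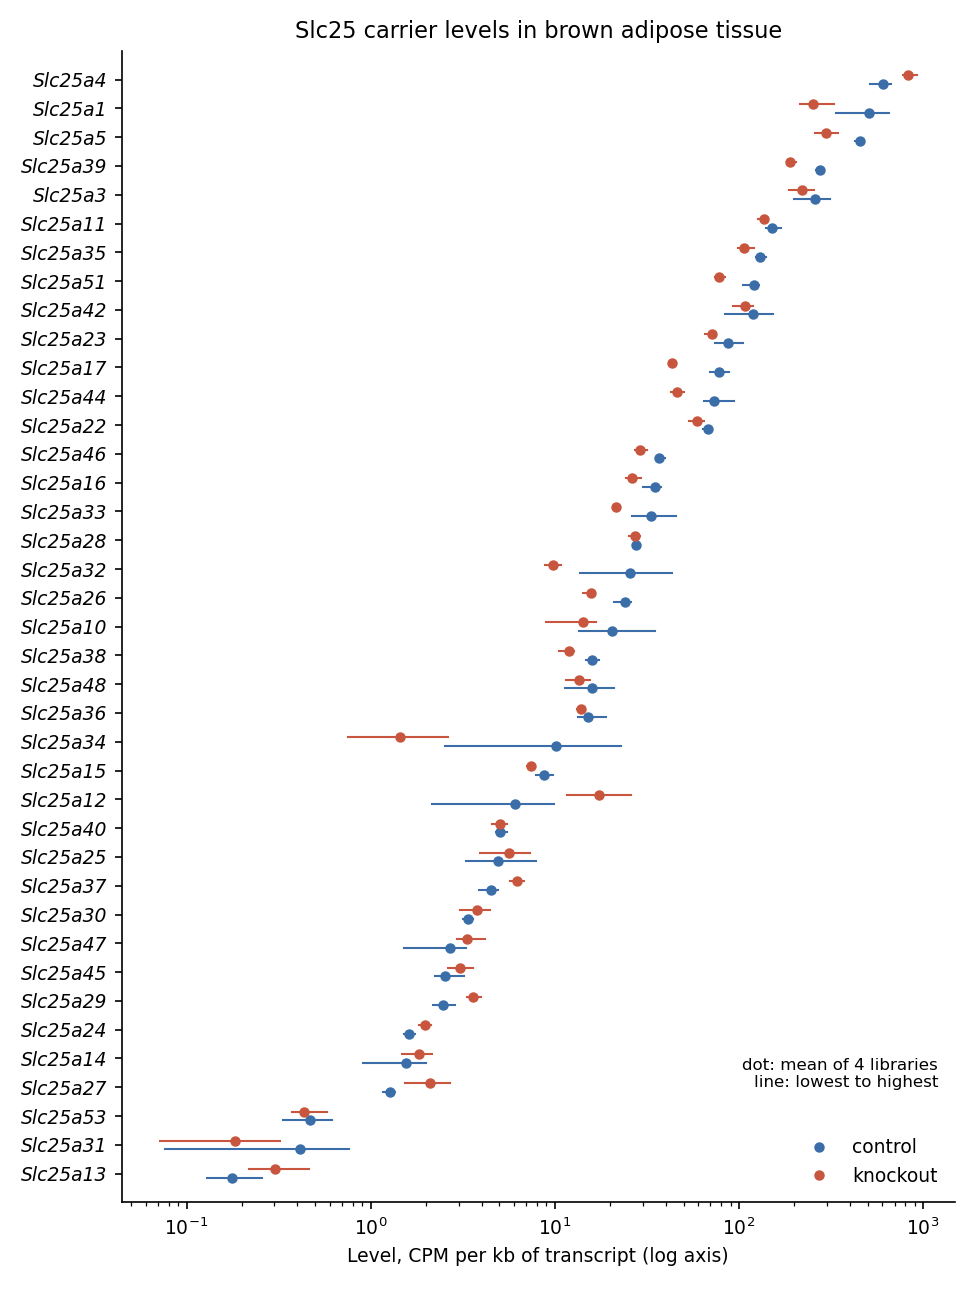
Level of 39 of the 40 tested carriers in CPM per kb of transcript on a log axis, ordered by the control mean. Dots are means of 4 control (blue) or 4 knockout (red) libraries and lines run from the lowest library above 0 to the highest. The highest control mean is that of Slc25a4 (602 CPM per kb) and the lowest that of Slc25a13 (0.177 CPM per kb).

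Among the 13 carriers of nucleotides, phosphate and coenzyme A, 12 were tested. Of these 4 were lower, 33.3% beside 18.9% over all genes, and 1 was higher, 8.33% beside 15.4%. The ADP/ATP carriers went in opposite directions. These proteins exchange cytosolic ADP for ATP made in the matrix. Slc25a4, the isoform that predominates in heart and skeletal muscle (chromosome 8, 46207341 to 46211009, minus strand, mm10), was at 736, 692, 566 and 647 CPM in controls 511, 514, 517 and 518 and at 1015, 863, 900.4 and 849 CPM in knockouts 512, 513, 515 and 516. Every knockout library lay above every control library. The mean went from 660.3 ± 72.4 CPM to 907 ± 75.3 CPM, a log2 change of 0.46 (SE 0.0990, adjusted p = 0.00789 by edgeR). Slc25a5, the isoform of most other tissues (chromosome X, 36795652 to 36798806, plus strand), was at 522, 563, 566 and 574 CPM in the same controls and 319.7, 319, 422 and 404 CPM in the knockouts. Here every knockout library lay below every control library, with means of 556 ± 23.5 CPM and 366 ± 54.6 CPM (log2 change -0.60, SE 0.106, adjusted p = 0.00314 by edgeR). Both calls held with each alternative scaling and test and without any single library. Counts of Slc25a5 carry a limit, since 46.9% of its 50-base words also occur in other annotated genes, among them the pseudogenes Gm5560 and Slc25a5-ps, and how such reads were counted is not given in the sources used here.

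The balance within this pair was also measured as the share of Slc25a4 in their summed counts per kb, a ratio inside a library that does not depend on scaling between libraries. It was 61.2%, 58.0%, 52.9% and 55.8% in controls and 78.1%, 75.2%, 70.5% and 70.2% in knockouts. The mean rose from 57.0 ± 3.53% to 73.5 ± 3.81% (SD, n = 4), a difference of 16.5 percentage points, or 17.1 where counts were not divided by length. An exact two-sided permutation test over the libraries gave p = 0.0286, the smallest value that 4 against 4 can give, and 0.0381 adjusted over the 4 paralog shares tested. Without control 511 the difference was 18.0 points and the groups still did not overlap, with an adjusted exact permutation p of 0.0571. That value also depends on the p of the other shares. The muscle markers also differed between the groups. Among knockouts the share had the same order as the summed muscle markers, from 512 (78.1%, 15888 CPM) down to 516 (70.2%, 7402 CPM). Among controls it did not keep that order, and it was 58.0% in control 514, the library with the lowest muscle level (306 CPM summed). The part of muscle in the share was not tested. Slc25a4 kept its call when a muscle score, the mean log2 CPM of those markers, was added to the model (log2 change 0.47, adjusted p = 0.0382 by edgeR).

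The promoters of both genes are shown as the 250 bases before the RefSeq start, since the paralogs moved apart in the same libraries. Capitals mark CpG dinucleotides, of which Slc25a4 has 18 (chr8:46211063-46211312, minus strand, 64.8% GC) and Slc25a5 has 14 (chrX:36795347-36795596, plus strand, 61.6% GC), beside a median of 12 in the Slc25 promoters and of 6 in all promoters of this length. Both sequences are from RefSeq on GRCm38.p6, read 5′ to 3′ along the gene.
Slc25a4: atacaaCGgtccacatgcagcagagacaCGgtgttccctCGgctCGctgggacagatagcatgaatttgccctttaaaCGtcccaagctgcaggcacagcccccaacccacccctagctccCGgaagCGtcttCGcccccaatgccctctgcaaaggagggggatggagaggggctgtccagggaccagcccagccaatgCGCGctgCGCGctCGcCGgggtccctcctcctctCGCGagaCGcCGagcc
Slc25a5: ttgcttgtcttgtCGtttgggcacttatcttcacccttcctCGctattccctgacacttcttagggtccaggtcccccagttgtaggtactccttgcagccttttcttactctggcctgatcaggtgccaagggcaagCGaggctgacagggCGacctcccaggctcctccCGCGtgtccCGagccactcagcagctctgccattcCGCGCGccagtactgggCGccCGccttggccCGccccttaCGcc
Motifs were sought on both strands in the 35 carrier genes with an entry, in windows from 250 bases before to 50 after the start. The extended half-site of the estrogen-related receptors, TCAAGGTCA, was in 0 of the 35, in 0.466% of all genes with a promoter entry and in 0.321% of those tested. The palindromic core motif of nuclear respiratory factor 1 was in 0 of the 35, in 1.07% of all and in 2.23% of those tested. The shorter half-site AAGGTCA, which the first motif contains and which was added after the others gave no match, was in 1 of the 35, that of Slc25a34, in 5.38% of all and in 4.11% of those tested.

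The phosphate carrier Slc25a3, which supplies the matrix with the phosphate that ATP synthase uses, was not called. Its libraries ran from 299 to 466 CPM in controls and from 279 to 381 CPM in knockouts and overlapped (log2 change -0.25, SE 0.147, adjusted p = 0.213 by edgeR). It was called lower once the muscle score was in the model (log2 change -0.49, adjusted p = 0.049 by edgeR). The testis isoform of the ADP/ATP carrier, Slc25a31, was at 0.872 ± 0.664 CPM in controls and was not called.

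The smallest adjusted p in the family was that of Slc25a17, a carrier of the peroxisomal membrane that handles coenzyme A, FAD and NAD. Control libraries held 140.2, 116, 114 and 145 CPM and knockout libraries 72.4, 70.1, 72.0 and 69.4 CPM. The knockout libraries were tightly grouped, all well below the lowest control, and the log2 change was -0.86 (SE 0.0897, adjusted p = 0.000367 by edgeR). Slc25a16, linked to mitochondrial coenzyme A, fell from 109 ± 10.2 CPM to 82.0 ± 7.27 CPM (log2 change -0.41, adjusted p = 0.00875 by edgeR). Its call ended with library sizes alone (adjusted p = 0.12) and with the muscle score in the model (0.0514). Slc25a42, the carrier that imports coenzyme A in exchange for adenine nucleotides, was not called, and its libraries overlapped at 264 to 482 CPM in controls and 294 to 376 CPM in knockouts (log2 change -0.15, SE 0.164).

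The pyrimidine nucleotide carriers, which supply mitochondrial DNA and RNA synthesis, differed in their calls. Slc25a33 was at 48.9, 62.3, 52.7 and 84.4 CPM in controls and 41.0, 39.6, 40.4 and 39.6 CPM in knockouts. No knockout library reached the lowest control, and the log2 change was -0.63 (SE 0.154, adjusted p = 0.0136 by edgeR), a call that ended with library sizes alone (0.069). Antisense counts limit this value, since 14.9% of the exon bases of Slc25a33 lie opposite Gm13068. Slc25a36 was at 40.5 to 57.4 CPM in controls and 40.3 to 43.5 CPM in knockouts and was not called (log2 change -0.14, SE 0.107). Of its 50-base words 11.8% occur in another gene, Gm13217. The difference between the paralogs was tested as a share. Slc25a33 made up 68.3 ± 2.42% of their summed counts per kb in controls and 61.0 ± 0.769% in knockouts (SD, n = 4), without overlap (exact permutation p = 0.0286, adjusted 0.0381, and 0.0571 without control 511).

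The ATP-Mg/phosphate carriers adjust the pool of adenine nucleotides in the matrix, and most are gated by cytosolic calcium. Slc25a23, Slc25a24 and Slc25a25 were tested and did not pass the threshold, and 2 of them had an unadjusted p under 0.05. Slc25a23 was at 292 ± 46.7 CPM in controls and 238 ± 15.2 CPM in knockouts (log2 change -0.30, SE 0.113, adjusted p = 0.0695 by edgeR). Slc25a24 was low, at 5.40 ± 0.319 CPM and 6.59 ± 0.449 CPM, with no overlap of the groups but no call (log2 change 0.29, adjusted p = 0.0732 by edgeR). Slc25a25 varied more within each group than between them, from 10.9 to 25.9 CPM in controls and from 12.8 to 24.1 CPM in knockouts. Slc25a41, whose gene lies 2056 bases from that of Slc25a23 on the same strand of chromosome 17, had at most 7 counts in a library and was not tested.

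**Figure D2:**
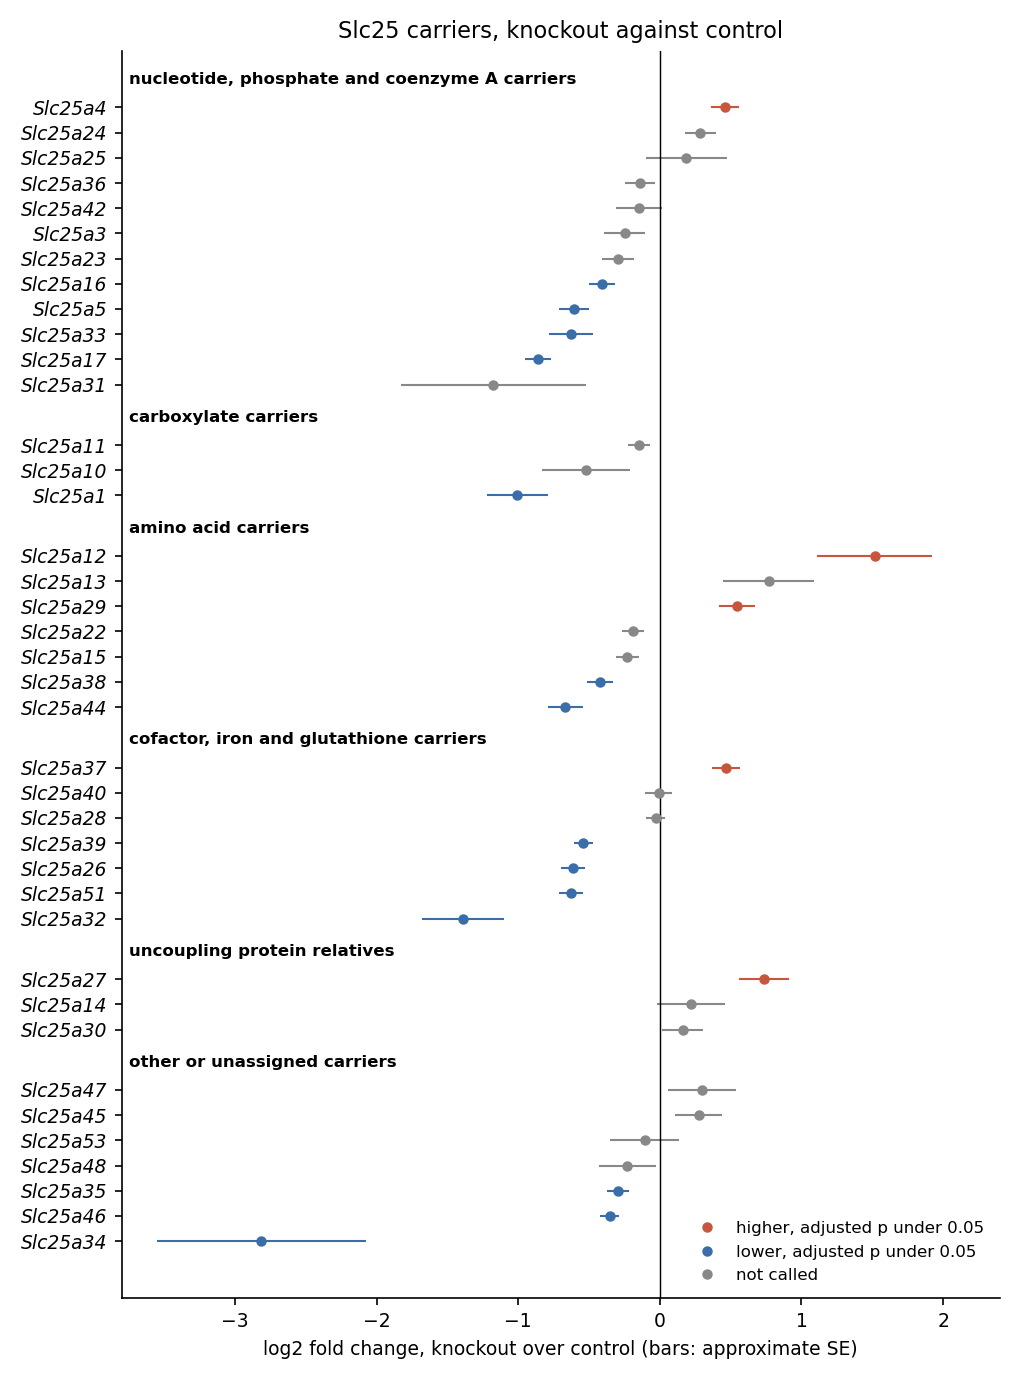
Log2 fold change of knockout over control for 39 of the 40 tested carriers, grouped by role, with bars for the approximate standard error. Red marks the 5 carriers called higher, blue 14 of the 15 called lower and grey the 20 not called. Values run from -2.81 for Slc25a34 to 1.52 for Slc25a12.

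Among the 4 carboxylate carriers, which move intermediates of the citric acid cycle, 3 were tested. Of these 1 was lower, 33.3% beside 18.9% over all genes. Slc25a1, the carrier that exports citrate for fatty acid synthesis in the cytosol (chromosome 16, 17925211 to 17928219, minus strand), was at 989, 557, 1079 and 758 CPM in controls and at 416, 355, 366 and 546 CPM in knockouts. The groups did not overlap, although the lowest control, 514, and the highest knockout, 516, were close at 557 and 546 CPM. The mean fell from 846 ± 235 CPM to 421 ± 87.7 CPM, a log2 change of -1.01 (SE 0.215, adjusted p = 0.00747 by edgeR). Acly, the enzyme that splits the exported citrate, was lower too (log2 change -1.18, SE 0.163, adjusted p = 0.00104 by edgeR). Slc25a10, the dicarboxylate carrier, was not called, and control 511 stood apart at 139.9 CPM while the other 7 libraries lay between 35.8 and 67.5 CPM. Its row in the count table is 3977 bases long, beside 2023 bases of annotated exons in GENCODE, which lowers its value per kb. Slc25a11, which exchanges oxoglutarate for malate, was at 277 ± 23.8 CPM and 251 ± 12.8 CPM and was not called (log2 change -0.15, SE 0.0782, adjusted p = 0.176 by edgeR). Slc25a21, the oxodicarboxylate carrier, had at most 9 counts in a library and was not tested.

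Of 9 amino acid carriers 7 were tested, 2 were higher and 2 lower. Each is 28.6% of those tested, beside 15.4% higher and 18.9% lower over all genes. The largest rise in the family was that of Slc25a12, also called aralar, which exports aspartate in exchange for glutamate and a proton and so drives the malate-aspartate shuttle (chromosome 2, 71274295 to 71367554, minus strand). It was at 20.04, 6.23, 15.2 and 28.6 CPM in controls and 74.5, 46.3, 46.2 and 33.7 CPM in knockouts. All knockout libraries were above all controls, but the spread inside each group was wide, with means of 17.5 ± 9.33 CPM and 50.2 ± 17.3 CPM. The log2 change was 1.52 (SE 0.405, adjusted p = 0.0195 by edgeR). This call ended without knockout 512 (log2 change 1.26, adjusted p = 0.0502), the library with the highest level.

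Slc25a12 is abundant in skeletal muscle, and its level followed the muscle markers from library to library. Ranked from low to high, the 8 libraries had the same order for Slc25a12 and for the summed muscle markers, inside each group and across both. Control 514 had the lowest values, 6.23 CPM of Slc25a12 beside 306 CPM of muscle markers, and knockout 512 the highest, 74.5 CPM beside 15888 CPM. Once the muscle score was in the model, the log2 change of Slc25a12 was 0.58 and no longer called (adjusted p = 0.0759 by edgeR). The score itself differs between the groups, so this fit takes out part of any difference that goes with it. Slc25a4 did not have the same order: control 517 was lowest for it and control 514 lay above controls 517 and 518. Yet for Slc25a4 as for the muscle markers, every knockout library lay above every control library, and knockout 512 was highest. The part of muscle in the rise of Slc25a4 was not tested further.

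**Figure D3:**
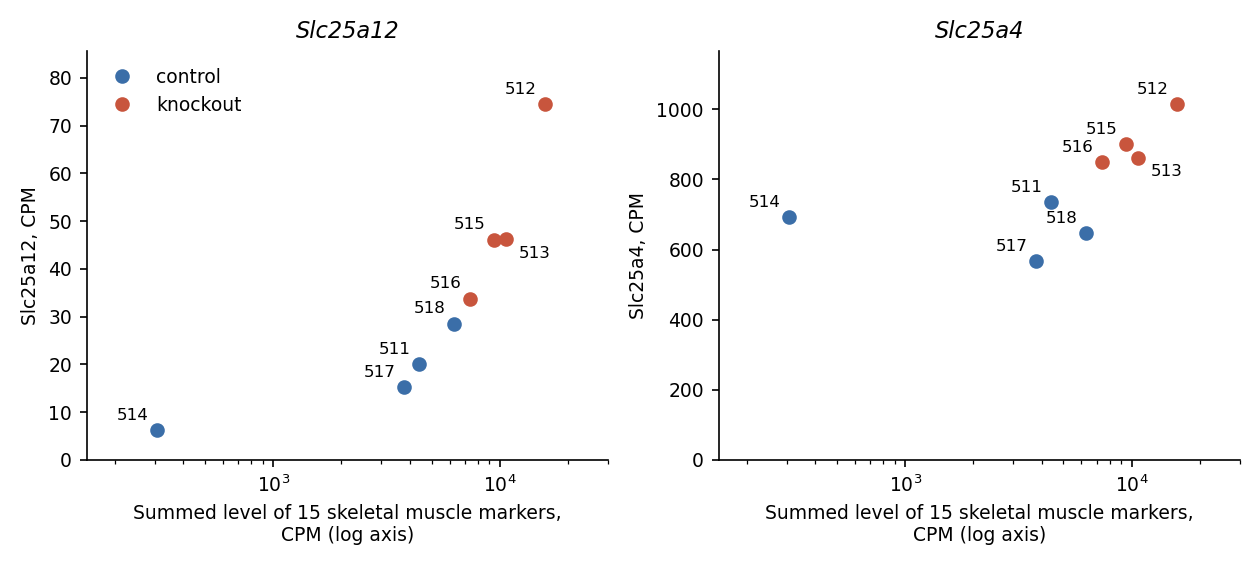
Levels of Slc25a12 (left) and Slc25a4 (right) in CPM against the summed level of 15 skeletal muscle markers in CPM on a log axis, with 1 point for each of the 8 libraries and its number beside it. Slc25a12 climbs with the muscle markers from control 514 (6.23 CPM) to knockout 512 (74.5 CPM), while Slc25a4 is at 692 CPM in control 514 and 1015 CPM in knockout 512.

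The 250 bases before the start of Slc25a12 (chr2:71367756-71368005, minus strand, RefSeq on GRCm38.p6) are shown for comparison with the pair above. They hold 6 CpG dinucleotides, in capitals, at 49.6% GC.
Slc25a12: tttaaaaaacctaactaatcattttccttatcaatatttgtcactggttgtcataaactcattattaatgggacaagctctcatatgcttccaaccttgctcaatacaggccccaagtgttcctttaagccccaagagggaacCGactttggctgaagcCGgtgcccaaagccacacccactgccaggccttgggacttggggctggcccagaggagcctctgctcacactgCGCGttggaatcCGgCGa

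Slc25a13, or citrin, the liver form of the same aspartate-glutamate carrier, was scarce throughout at 0.547 ± 0.172 CPM and 0.930 ± 0.333 CPM, between 9.5 and 35.5 counts per library. It was not called (log2 change 0.77, SE 0.319, adjusted p = 0.0903 by edgeR). Aralar therefore made up nearly all of the pair's counts per kb in either group, 96.5 ± 1.80% in controls and 98.2 ± 0.799% in knockouts (SD, n = 4, exact permutation p = 0.20, also after adjustment).

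Slc25a44, which carries branched-chain amino acids into the mitochondria of brown fat, fell in all knockouts (chromosome 3, 88410496 to 88425139, minus strand). It was at 239.9, 231, 242 and 337 CPM in controls and 152, 165, 179 and 165 CPM in knockouts. Control 518 stood above the other controls, and all knockouts were below the lowest control (log2 change -0.67, SE 0.124, adjusted p = 0.00392 by edgeR). Slc25a38, the glycine carrier needed for heme synthesis, fell from 25.0 ± 1.77 CPM to 18.7 ± 1.52 CPM (log2 change -0.42, adjusted p = 0.00709 by edgeR). That call ended with library sizes alone (0.0902) and with the muscle score in the model (0.0663). Slc25a29, a carrier of basic amino acids, was the other rise of this role group, from a low level of 4.82 ± 0.573 CPM to 7.03 ± 0.569 CPM (log2 change 0.54, SE 0.129, adjusted p = 0.0115 by edgeR). Its neighbour Slc25a47, 15252 bases away on the opposite strand of chromosome 12, was not called and had a like control level per length, 2.69 CPM per kb beside 2.46 for Slc25a29. The glutamate carrier Slc25a22, at 187 ± 10.1 CPM and 164 ± 14.1 CPM, and the ornithine carrier Slc25a15, at 30.1 ± 2.59 CPM and 25.7 ± 1.09 CPM, did not pass the threshold (adjusted p = 0.0922 and 0.0518 by edgeR), although the groups did not overlap for Slc25a15. Slc25a18 and Slc25a2, the other glutamate and ornithine carriers, had at most 14 and 8 counts in a library and were not tested.

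All 8 carriers of cofactors, iron and glutathione were tested. Of these 5 were lower, 62.5% beside 18.9% over all genes, and 1 was higher, 12.5% beside 15.4%. Slc25a51, the carrier of NAD, was at 546, 465, 561 and 566 CPM in controls and 327, 371, 355 and 330.0 CPM in knockouts, without overlap (log2 change -0.63, SE 0.0843, adjusted p = 0.000927 by edgeR). Slc25a26, which imports S-adenosylmethionine, the methyl donor of the matrix, fell from 45.4 ± 3.91 CPM to 29.7 ± 1.84 CPM (log2 change -0.61, SE 0.0825, adjusted p = 0.00094 by edgeR). In GENCODE 7.23% of its exon bases lie opposite Lrig1, and the counts ignore strand.

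Slc25a32, a carrier of folate and FAD, showed the largest fall of this role group, from 40.3, 63.5, 70.6 and 127 CPM in controls to 31.8, 29.5, 25.8 and 27.8 CPM in knockouts. The controls were widely spread, with 518 highest and 511 lowest, while the knockouts lay close together below them (log2 change -1.39, SE 0.292, adjusted p = 0.00695 by edgeR). The adjusted p stayed at or below 0.024 when any single library was left out. The glutathione carriers differed in level, at 277 CPM per kb for Slc25a39 and 5.05 for Slc25a40 in controls. Slc25a39 fell from 432, 458, 472 and 457 CPM in controls to 336, 309.6, 298 and 306 CPM in knockouts (log2 change -0.54, SE 0.0661, adjusted p = 0.00062 by edgeR). Slc25a40, its close relative, was at 13.9 ± 0.948 CPM and 13.8 ± 1.21 CPM with no call (log2 change -0.01, SE 0.0977), and the difference between the paralogs was not tested.

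The mitoferrins import iron for heme and iron-sulfur cluster synthesis, and the form with the lower level per length (4.49 beside 27.7 CPM per kb in controls) rose. Slc25a37, the mitoferrin best known from erythroid cells (chromosome 14, 69241851 to 69285103, minus strand), was at 16.1, 20.4, 18.0 and 20.1 CPM in controls and 23.6, 26.5, 28.2 and 24.8 CPM in knockouts. The groups did not overlap (log2 change 0.47, SE 0.10, adjusted p = 0.00762 by edgeR). Slc25a28, the form of other tissues, was at 43.1, 44.5, 40.6 and 41.2 CPM and 43.1, 40.4, 38.4 and 44.1 CPM, fully overlapping (log2 change -0.03, SE 0.0680, adjusted p = 0.766 by edgeR), with an estimate that turned positive under other scalings. The share of Slc25a37 in their counts per kb went from 13.9 ± 1.33% to 18.6 ± 2.12% (SD, n = 4, exact permutation p = 0.0286, adjusted 0.0381, and 0.0762 without control 511). The difference was 4.73 percentage points, or 7.82 where counts were not divided by length. Erythroid markers summed to 783 to 1207 CPM in controls and 1051 to 1545 CPM in knockouts, with 0 of 5 tested called by edgeR and Slc4a1 under 1 CPM in every library, and their part in the rise was not tested. GENCODE places 9.13% of the exon bases of Slc25a37 opposite other gene models.

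**Figure D4:**
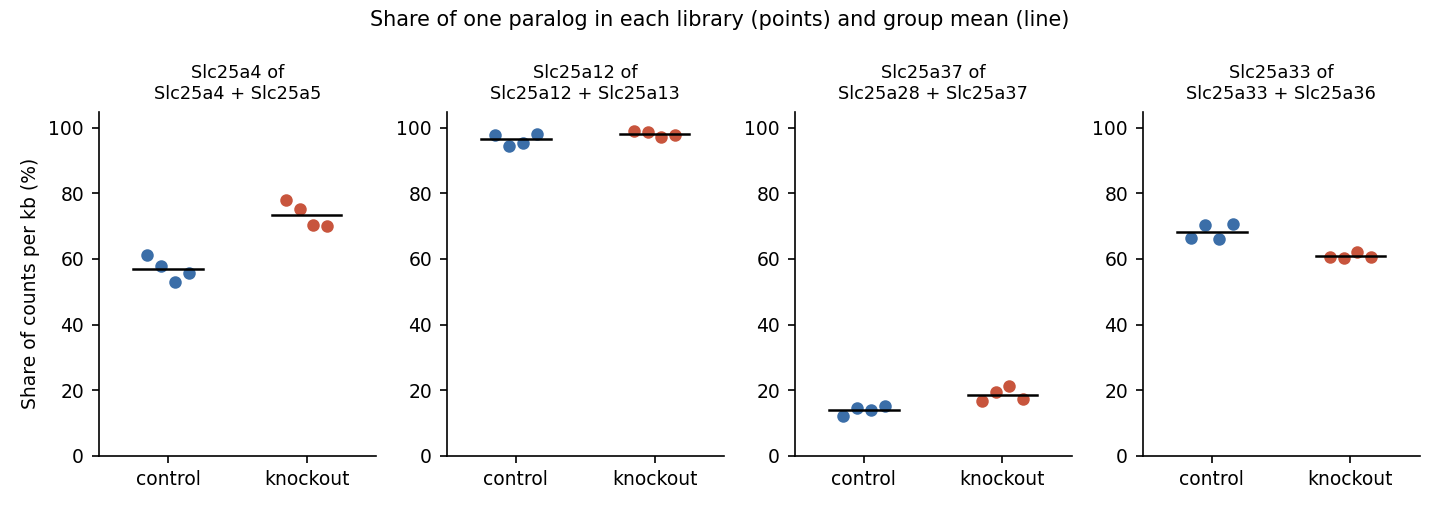
Share of 1 paralog in the summed counts per kb of a pair, in percent, in each of the 8 libraries (points) with group means (lines). The share of Slc25a4 lies between 52.9% and 61.2% in controls and between 70.2% and 78.1% in knockouts, and that of Slc25a12 is 94.6% or more in all libraries.

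Among the 3 relatives of the uncoupling proteins, all low in this tissue, 1 was higher, 33.3% beside 15.4% over all genes. Slc25a27, known as UCP4 and best described in brain, was at 3.12, 3.43, 3.35 and 3.62 CPM in controls and 7.22, 5.49, 4.10 and 5.68 CPM in knockouts, without overlap (log2 change 0.73, SE 0.178, adjusted p = 0.013 by edgeR). It was not called with the muscle score in the model (log2 change 0.69, adjusted p = 0.0811 by edgeR). Slc25a14 and Slc25a30 were at 2.71 and 5.69 CPM in controls and were not called.

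Of the 9 remaining carriers 7 were tested and 3 were lower, 42.9% beside 18.9% over all genes. Slc25a34 had the largest log2 change of the family in size, -2.81 (SE 0.738, adjusted p = 0.018 by edgeR), but not the clearest separation. It was at 8.42, 6.78, 32.1 and 60.8 CPM in controls and 7.06, 4.06, 2.01 and 2.24 CPM in knockouts. Controls 517 and 518 were far above all other libraries, whereas controls 511 and 514 were near knockout 512 and the groups overlapped. The call ended without knockout 515 (adjusted p = 0.0518) or 516 (0.0541). Slc25a46, a carrier-like protein of the outer mitochondrial membrane with a part in mitochondrial shape, fell from 161 ± 8.37 CPM to 126 ± 8.0 CPM (log2 change -0.35, adjusted p = 0.00507 by edgeR), a call that ended with library sizes alone (0.117). Opposite its exons, B930094E09Rik covers 8.56% of the bases. Slc25a35 fell from 237 ± 11.9 CPM to 193 ± 16.9 CPM (log2 change -0.30, adjusted p = 0.0178 by edgeR), and this was the least stable call, ending with upper quartile factors (0.0933), with library sizes alone (0.338), with the muscle score (0.138) and without knockout 513 (0.0575) or 516 (0.0533). Of its exon bases 22.3% lie opposite Rangrf, and 25.7% of its 50-base words occur in other genes. Slc25a45, Slc25a47, Slc25a48 and Slc25a53 were not called, with log2 changes of 0.28, 0.30, -0.23 and -0.11. Slc25a43, whose gene is 18449 bases from that of Slc25a5 on chromosome X, had at most 4 counts in a library and was not tested. Slc25a54, 6566 bases from Slc25a24 on chromosome 3, had 0 counts in all 8 libraries, which allows at most 0.132 CPM, the limit in control 517, the highest of the 8 (3 counts, counting error only).

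**Figure D5:**
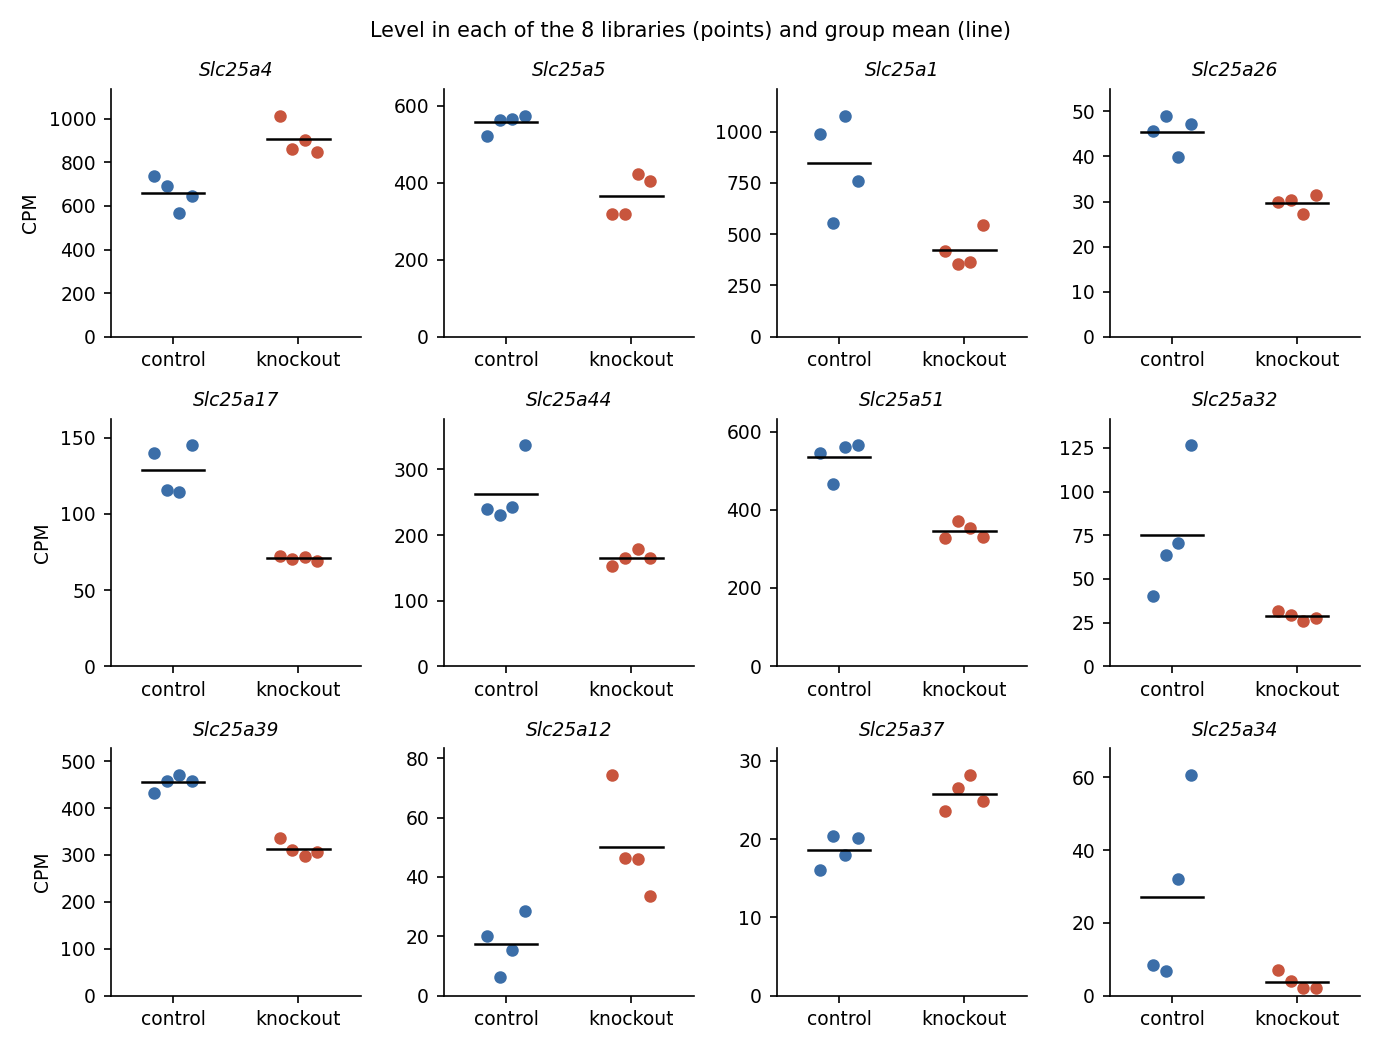
Levels of 12 carriers in CPM, on axes that start at 0, with 1 point for each of the 4 control (blue) and 4 knockout (red) libraries and a line at the group mean. Of these only Slc25a34 has overlapping groups, with knockout 512 (7.06 CPM) between controls 514 (6.78 CPM) and 511 (8.42 CPM).

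Other transport proteins of the mitochondrial membranes were counted for comparison, from a list of 26 genes that were all tested. Lower calls numbered 14, 53.8% beside 18.9% over all genes and 37.5% of the tested carriers. Higher calls numbered 5, 19.2% beside 15.4% over all genes. The median log2 change was -0.34, and 10 were lower and 7 higher with library sizes alone. Those with the smallest p among the lower genes were Mtch2, a carrier-like protein of the outer membrane (-0.61, SE 0.0654), Ucp1, the uncoupling protein of brown fat (-1.70, SE 0.191), and Letm1, a cation exchanger (-1.02, SE 0.114). Among the higher genes they were Ucp2, a relative of Ucp1 that went from 59.2 ± 7.27 to 235 ± 49.2 CPM (log2 change 1.99, SE 0.164, adjusted p = 0.000139 by edgeR), the sideroflexin Sfxn3 (0.53, SE 0.0949) and the sodium-calcium exchanger Slc8b1 (0.74, SE 0.163).

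Of 22 enzymes that make or use the carriers' substrates, 7 were lower, 31.8% beside 18.9% over all genes. Another 3 were higher, 13.6%, near the 15.4% over all genes. The median log2 change was -0.30, and 3 were lower and 5 higher with library sizes alone. Gpd1, the cytosolic enzyme of the glycerol phosphate shuttle (-0.78, SE 0.102), Acly and the cytosolic isocitrate dehydrogenase Idh1 (-0.52, SE 0.0788) had the smallest p among the lower genes. The higher genes were the aspartate aminotransferases that work with Slc25a12 in the malate-aspartate shuttle and the transhydrogenase Nnt. Got2, the mitochondrial form, went from 33.1 ± 7.65 to 229.8 ± 12.8 CPM (log2 change 2.79, SE 0.149, adjusted p = 2.7e-05 by edgeR) and Got1, the cytosolic form, from 41.8 ± 7.22 to 107 ± 15.2 CPM (log2 change 1.36, SE 0.142, adjusted p = 0.000372 by edgeR). The malate dehydrogenases of the same shuttle, Mdh1 and Mdh2, named after their values were seen, were not called (-0.14, SE 0.103, and -0.25, SE 0.0867), like the shuttle's other carrier Slc25a11. Nnt was at 11.8 ± 5.59 CPM in controls and 28.4 ± 14.3 CPM in knockouts with overlapping groups (log2 change 1.26, adjusted p = 0.042 by edgeR). Its adjusted p was the nearest to the threshold of the 3 higher enzymes. Only 2 enzymes were called higher by limma-voom and with the muscle score in the model. The same held without control 514 or 517 or knockout 512, 513 or 516.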

How the data were processed

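RNA sequencing covered brown adipose tissue in 4 control and 4 knockout libraries, made from Trizol-extracted total RNA and read on the Illumina platform, per the labels' protocols. The aligner was TopHat2 version 2 and the genome build mm10. HOMER and edgeR are also named, all per the submitters' processing notes. The estimated counts deposited by the authors came from HOMER's analyzeRepeats.pl over the exons of RefSeq gene models, unadjusted and without regard to strand, per the file headers. Transcript length in bases is a further column of that deposited table. Without strand, reads of a gene and its antisense partner cannot be told apart. The authors' own comparison was not used here.

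Of the values 36.9% are not whole, and they were rounded before testing. Rows without a symbol (829, holding 0.0608% to 0.0824% of the counts) were left out, and the row with the highest total stood for each gene. Genes were filtered with filterByExpr (minimum count 10), which left 14178, scaled by TMM factors and tested by the two-sided quasi-likelihood test of edgeR 4.0.16 (R 4.3.3), knockout against control, with Benjamini-Hochberg adjustment over all genes and a threshold of 0.05. The standard error is the log2 fold change divided by the square root of F, an approximation. CPM are scaled by the TMM factors, and CPM per kb is divided by transcript length. The test was checked on simulated counts. All columns of libraries were matched by number, and no batch is named.

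Alternatives were relative log expression and upper quartile factors, library sizes alone, no filter, DESeq2 1.42.0, limma-voom (limma 3.58.1) with sample weights, the longest transcript row, the mean log2 CPM of 15 muscle markers as a covariate (prior count 2), and leaving out each library. For the paralog shares they were counts not divided by length, the longest row and leaving out each library. Carriers named in full are the 20 called and others from a list of 19, 29 in all, and of the other lists the 3 smallest p in each direction. The carriers and lists were chosen with earlier results of these data known. Exon overlaps and shared 50-base words come from GENCODE vM21. Of the list entries 153 matched by symbol, 1 by a synonym, and Slc25a52 was not matched. A carrier and a marker gene that enter the counts are not reported by name here. A planned count of the carrier signature in proteins was not made.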

Additional observations from a re-analysis of the deposited data

Results flagged for a closer look

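In 66 groups of 4 libraries (the 29 carriers named in full and the 4 paralog shares, in each genotype) Dixon's ratio, the gap of the extreme library to its nearest neighbour over the group's range, was above its 95% critical value in 2, where chance gives about 1 in 20. Control 511 held 139.9 CPM of the dicarboxylate carrier Slc25a10 (ratio 0.842). Control 518 held 337 CPM of the branched-chain amino acid carrier Slc25a44 (ratio 0.896). Slc25a44 was called lower without control 518 too, and Slc25a10 was not called with or without control 511.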

How the results depend on the processing

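No paired analysis was possible because the labels give no pairing of libraries between the groups. Of the 20 carriers called, 12 kept their call and direction under every alternative run, and the other 8 are named with the results above. DESeq2, limma-voom, relative log expression factors, no filter and the longest row changed no call or direction of the 29 carriers named in full. Over all tested carriers, limma-voom and DESeq2 each called 5 higher and 17 lower. Over all 14178 genes they called 2467 and 2545 higher and 2844 and 2841 lower. Once the muscle score was in the model 3 carriers and 3 other membrane transporters were higher, beside 1407 of all genes. Among the substrate enzymes 5 were higher and 3 lower with library sizes alone, and 12 and 11 were lower by limma-voom and DESeq2. Estimates of uncalled carriers changed sign with library sizes alone for Slc25a11 (0.0514), Slc25a22 (0.0107), Slc25a28 (0.17), Slc25a36 (0.0554) and Slc25a42 (0.0562), with upper quartile factors for Slc25a28 (0.0734), and with the muscle score for Slc25a28 (0.0199) and Slc25a42 (0.15). Leaving out single libraries gave -0.0607 to 0.00533 for Slc25a28, positive without knockout 515, and -0.20 to 0.00576 for Slc25a36, positive without control 518. Slc25a13 was called with library sizes alone (log2 change 0.96, adjusted p = 0.0421 by edgeR). Leaving out single libraries gave 4 to 5 carriers higher and 13 to 17 lower, 4 to 5 and 10 to 14 membrane transporters, and 2 to 3 and 6 to 10 enzymes. Over all genes these fits called 1527 to 2260 higher and 1900 to 2655 lower. The change in share, knockout minus control, then ran from 15.002 to 18.0 percentage points for Slc25a4, 1.02 to 2.23 for Slc25a12, 3.85 to 5.36 for Slc25a37 and -8.08 to -6.59 for Slc25a33. Without control 511 the shares of Slc25a4, Slc25a37 and Slc25a33 did not pass (exact permutation p adjusted over the 4 shares 0.0571, 0.0762 and 0.0571). Their groups still did not overlap. With 3 against 4 libraries the test has few arrangements, and each adjusted p depends on the other shares. It therefore cannot show whether these differences rest on control 511. The causes were not tested.

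Carriers under about 1 CPM rest on few counts, and 6 of the 46 were too low to be tested at this depth.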
